A study of Drosophila melanogaster with 24 samples.

Results

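The odorant binding proteins of Drosophila melanogaster were measured on 35 probe sets, 1 for each of 35 genes, among the 13966 probe sets of the array that are not the maker's own controls. A probe set was taken as a member when its annotation named a single gene whose current symbol starts with Obp. Another 2 probe sets that name an Obp gene together with a second gene were left out, and 51 genes of the gene table carry an Obp symbol. The arrays held RNA of adult whole females from 8 groups of fly lines, with 1 array per line and 3 lines per group (24 arrays). The 7 regimes were lines selected for resistance to heat (heat selected), lines named constant 30, whose flies were held at 30 degrees per the labels, and lines selected for resistance to cold, for longevity, or for resistance to knock_down, starvation or desiccation. The control lines were not selected. Each array was made from a vial of 10 females, so a value is the average of pooled flies. The sources used here do not give the strain, the age, the number of generations of selection or the kind of knock_down, and the labels name no treatment of the sampled females beyond the temperature of constant 30.

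Odorant binding proteins are small secreted proteins that fill the fluid around the sensory neurons of antennae, palps and taste bristles, where they bind hydrophobic odorants, pheromones and tastants. The best studied member of the family, lush, takes part in the response of antennal neurons to a male pheromone. Other members are made outside the chemosensory organs, among them proteins of the haemolymph and proteins that males transfer with their semen. In a whole female, an antennal transcript is diluted by the RNA of all other tissues, and fewer cells of a type cannot be told apart from less RNA per cell. Values are log2 array signals (GCRMA), and a level of one probe set cannot be set against that of another.

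The female label was checked first. Of 23 probe sets for genes of the male accessory gland and testis, 19 were above 4 on no array, and SP (the sex peptide of seminal fluid) lay between 0.95 and 1.15 on all 24 arrays. The 2 tested male probe sets were those of the accessory gland genes Acp26Aa, above 4 on 19 arrays (3.90 to 4.42), and Acp32CD, above 4 on 23 arrays (3.97 to 4.89). Defining genes of the antenna were mostly below 4. Orco, the co-receptor that odorant receptors need, lay between 2.16 and 2.40, lush lay between 2.96 and 3.32, and 53 of 54 odorant receptor probe sets were above 4 on no array. The test took probe sets that exceeded 4 on 3 or more arrays out of 24, which kept 9023 probe sets.

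By that filter, 17 of the 35 odorant binding proteins were tested. On all 24 arrays, 14 members were above 4: Obp18a, Obp19b, Obp19c, Obp19d, Obp28a, Obp44a, Obp56a, Obp56d, Obp56e, Obp56g, Obp57c, Obp83b, Obp99a and Obp99c. Obp50e passed on 4 arrays, and Obp69a and Obp73a on 3 arrays each, so these 3 members entered the test through single arrays near the filter. The other 18 members were above 4 on no array and ranged from 2.27 to 3.99. Obp56h and Obp93a, with highest values of 3.99 each, were just below the filter, and Obp50e, with a highest value of 4.11, was just above it.

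**Figure D1:**
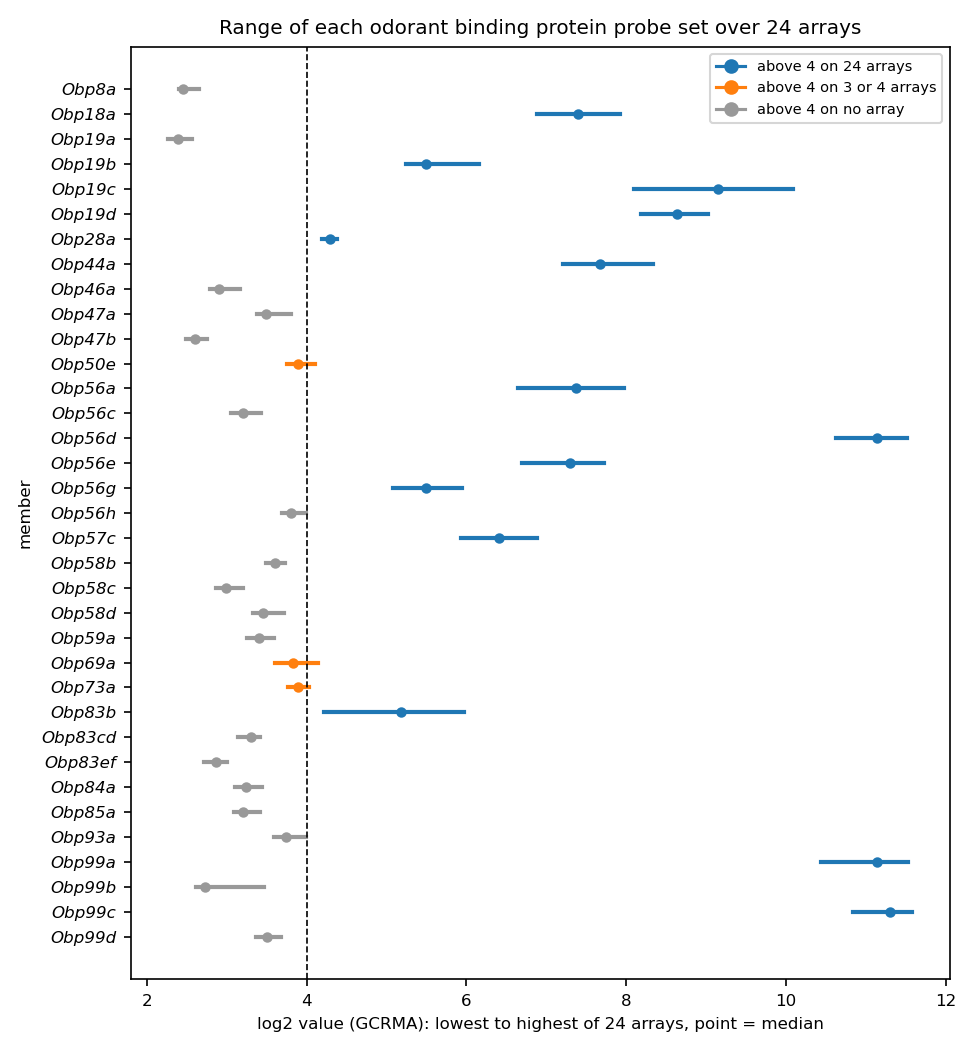
Each line runs across the page from the lowest to the highest log2 value of 1 odorant binding protein probe set over 24 arrays, the point is its median, and the dashed line is the filter at 4. The members fall into 14 that were above 4 on every array, 3 that crossed it on 3 or 4 arrays and 18 that never reached it.

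The members above the filter differed in the organs they are known from. Among 8 members described as abundant in the antenna, Obp19d, Obp28a, Obp56d and Obp83b were above 4 on every array and Obp69a on 3. Of these, Obp28a stayed near the filter, between 4.19 and 4.38. Obp19a, Obp59a (a protein of humidity-sensing sensilla) and Obp84a were above 4 on none. Obp56e and Obp56g, which have been found in seminal fluid of males, were above 4 in all 24 arrays of these females, with ranges of 6.70 to 7.72 and 5.08 to 5.95. Obp8a, also on the seminal fluid list, lay between 2.40 and 2.66. Obp19b, which has been studied in the taste of amino acids, ranged from 5.24 to 6.16.

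Obp44a, Obp99a and Obp99c, of the class that lacks a conserved pair of cysteines, were above 4 on every array, while Obp8a, Obp99b and Obp99d of the same class were above 4 on none. Of the class with additional cysteines, Obp46a, Obp47b, Obp58b, Obp58c, Obp58d, Obp85a and Obp93a were above 4 on no array, and Obp50e crossed 4 on 4 arrays. Obp83cd and Obp83ef, which hold a pair of odorant binding domains in 1 protein, were above 4 on none.

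Neighbouring genes did not all pass the filter together. As levels of different probe sets cannot be set against each other, this does not show which neighbour has more RNA. Obp19a, Obp19b, Obp19c and Obp19d follow each other with 0 protein-coding genes between them in the gene table. Obp19b, Obp19c and Obp19d were above 4 on all arrays, and Obp19a ranged from 2.27 to 2.57. In the run of adjacent genes Obp56a to Obp56f, the probe sets of Obp56a, Obp56d and Obp56e were above 4 on all arrays, and Obp56c lay between 3.05 and 3.43. Obp56g and Obp56h are adjacent to each other, and Obp56h lay between 3.69 and 3.99.

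The first comparison asked whether any regime differed from the unselected control lines. No odorant binding protein passed the test in any of the 7 regimes (adjusted p under 0.05, limma, n = 3 lines per group). Of 17 tested members, 0 were called in heat selected, where 2.84% of all tested probe sets were called. The count was also 0 of 17 in constant 30 (0% of all tested probe sets called), cold selected (0%), longevity selected (0%), knock_down selected (0.155%), starvation selected (0%) and desiccation selected (0.0776%). At an unadjusted p under 0.05 there were 5 members in heat selected (20.5% of all tested probe sets), 2 in constant 30 (6.98%), 0 in cold selected (7.9%), 0 in longevity selected (7.95%), 1 in knock_down selected (10.4%), 0 in starvation selected (9.21%) and 1 in desiccation selected (7.17%). The 7 comparisons share the same 3 control arrays. For the mean of the 7 regimes against control, 0 members were called (0% of all tested probe sets), and 1 had an unadjusted p under 0.05 (10.9%).

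The F test over the 8 groups called 0 members (0.0554% of all tested probe sets), and 3 members, Obp56d, Obp56a and Obp18a, had an unadjusted p under 0.05 (15.4%). Obp56d had an F statistic of 4.65 with an adjusted p of 0.167 in limma, Obp56a had 3.34 and Obp18a had 3.34, both with an adjusted p of 0.232. The F test over the 7 regimes, which does not use the control lines, also called 0 members (0.0665%), with 3 at an unadjusted p under 0.05 (14.3%). The spread between lines of a group was wider for these genes than for most: the median residual SD was 0.216 for the 17 members and 0.12 for all tested probe sets.

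**Figure D2:**
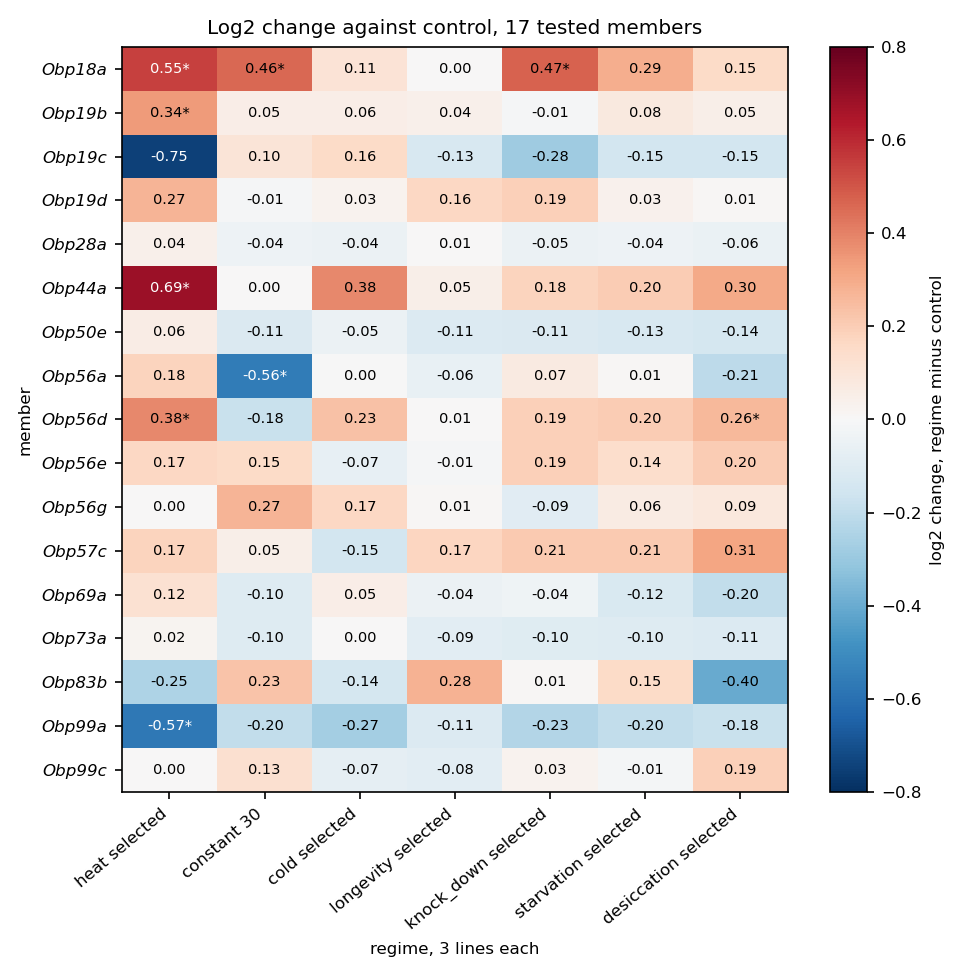
Each cell gives the log2 change of 1 odorant binding protein (rows) in 1 regime (columns) against control, from group means of 3 lines each, with red for higher and blue for lower in the regime. An asterisk marks an unadjusted p under 0.05, which 9 cells have, 5 of them in heat selected; no cell has an adjusted p under 0.05.

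The changes furthest from 0 in either direction, 0.69 for Obp44a and -0.75 for Obp19c on the log2 scale, were both in heat selected females. Of the 17 tested members, 14 had a log2 change above 0 and 3 below 0 against control, with a median of 0.12 over the members and 0.01 over all tested probe sets. The values of 3 members, Obp18a, Obp44a and Obp56d, did not overlap between the 3 heat selected and the 3 control lines, all of them higher in heat selected. Of all tested probe sets, 23.4% did not overlap between these groups, and 12% were higher in heat selected in this way. In the other regimes the number of members without overlap was 3 in constant 30 (13.1% of all tested probe sets), 1 in cold selected (11.1%), 0 in longevity selected (12.8%), 1 in knock_down selected (15%), 1 in starvation selected (15.4%) and 2 in desiccation selected (17%). In heat selected the smallest adjusted p of the members was 0.0776, for Obp56d.

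Obp44a is known from glia of the larval brain, where it binds fatty acids. It stood at 8.34, 8.09 and 8.01 in heat selected lines, against 7.21, 7.41 and 7.77 in control lines. All 3 heat selected lines were above the highest control line. The log2 change was 0.69 ± 0.24 (SE, n = 3 lines per group, adjusted p = 0.106, limma). The other 6 regimes spread from 7.21 to 8.34, and the highest of them, knock_down selected replicate 2 at 8.34, was level with the highest heat selected line while the other knock_down selected lines stood at 7.21 and 7.37.

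Obp18a had the highest log2 change against control of all tested members in constant 30, knock_down selected and starvation selected. It stood at 7.79, 7.65 and 7.48 in heat selected lines, at 7.41, 7.63 and 7.64 in constant 30 lines and at 7.26, 7.92 and 7.54 in knock_down selected lines. The control lines had 6.88, 7.04 and 7.37. All lines of heat selected and constant 30 were above the highest control line, and 1 knock_down selected line was not. The log2 changes against control were 0.55 ± 0.17 in heat selected (adjusted p = 0.079, limma), 0.46 ± 0.17 in constant 30 (adjusted p = 0.566) and 0.48 ± 0.17 in knock_down selected (adjusted p = 0.295). Starvation selected lines had 7.27, 7.41 and 7.48 and overlapped with control, with a log2 change of 0.29 ± 0.17 (adjusted p = 0.601). Longevity selected lines had 7.04, 7.08 and 7.17, cold selected lines 7.05, 7.02 and 7.54, and desiccation selected lines 7.01, 7.15 and 7.58. These 3 groups overlapped with control, with changes between 0.00 and 0.15.

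Obp99a and Obp99c are near neighbours in the gene table, with 5 protein-coding genes between them, and both were above 4 on every array. Obp99a stood at 10.43, 10.70 and 11.19 in heat selected lines, against 11.08, 11.51 and 11.46 in control lines. Heat selected replicate 3 overlapped with the lowest control line. The log2 change was -0.57 ± 0.21 (adjusted p = 0.117, limma), and it was below 0 in the other 6 regimes too, between -0.27 in cold selected and -0.11 in longevity selected. Cold selected lines had 10.89, 11.22 and 11.11 and starvation selected lines 11.37, 11.01 and 11.06, so both overlapped with control. Obp99c, in contrast, stood at 11.08, 11.45 and 11.27 in heat selected lines, against 11.14, 11.31 and 11.33 in control lines, with a log2 change of 0.00 ± 0.15 (adjusted p = 0.994). Over all 24 arrays Obp99c ranged from 10.83 to 11.58, and its changes against control lay between -0.08 in longevity selected and 0.19 in desiccation selected.

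Obp19c and Obp19d are adjacent genes. Obp19c stood at 8.32, 8.10 and 9.20 in heat selected lines, against 9.29, 9.66 and 8.91 in control lines, and 1 heat selected line overlapped with control. Its log2 change of -0.75 ± 0.36 (adjusted p = 0.249, limma) was the lowest of all tested members in heat selected. Longevity selected lines spread more widely than heat selected lines, at 8.30, 9.36 and 9.80, and knock_down selected lines hardly at all, at 9.08, 8.99 and 8.94. The changes of these regimes were -0.13 ± 0.36 and -0.28 ± 0.36 (adjusted p = 0.945 and 0.811). Constant 30 lines had 10.09, 8.90 and 9.16, and replicate 1 was the highest of all 24 arrays. Obp19d, known from antennae and taste organs, stood at 9.02, 8.98 and 8.44 in heat selected lines, against 8.18, 8.48 and 8.95 in control lines. Its groups overlapped and the log2 change was 0.27 ± 0.16 (adjusted p = 0.34). Obp19b had 6.16, 5.50 and 5.64 in heat selected lines, against 5.52, 5.24 and 5.53 in control lines, a log2 change of 0.34 ± 0.13 (adjusted p = 0.143) with 1 overlapping line.

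**Figure D3:**
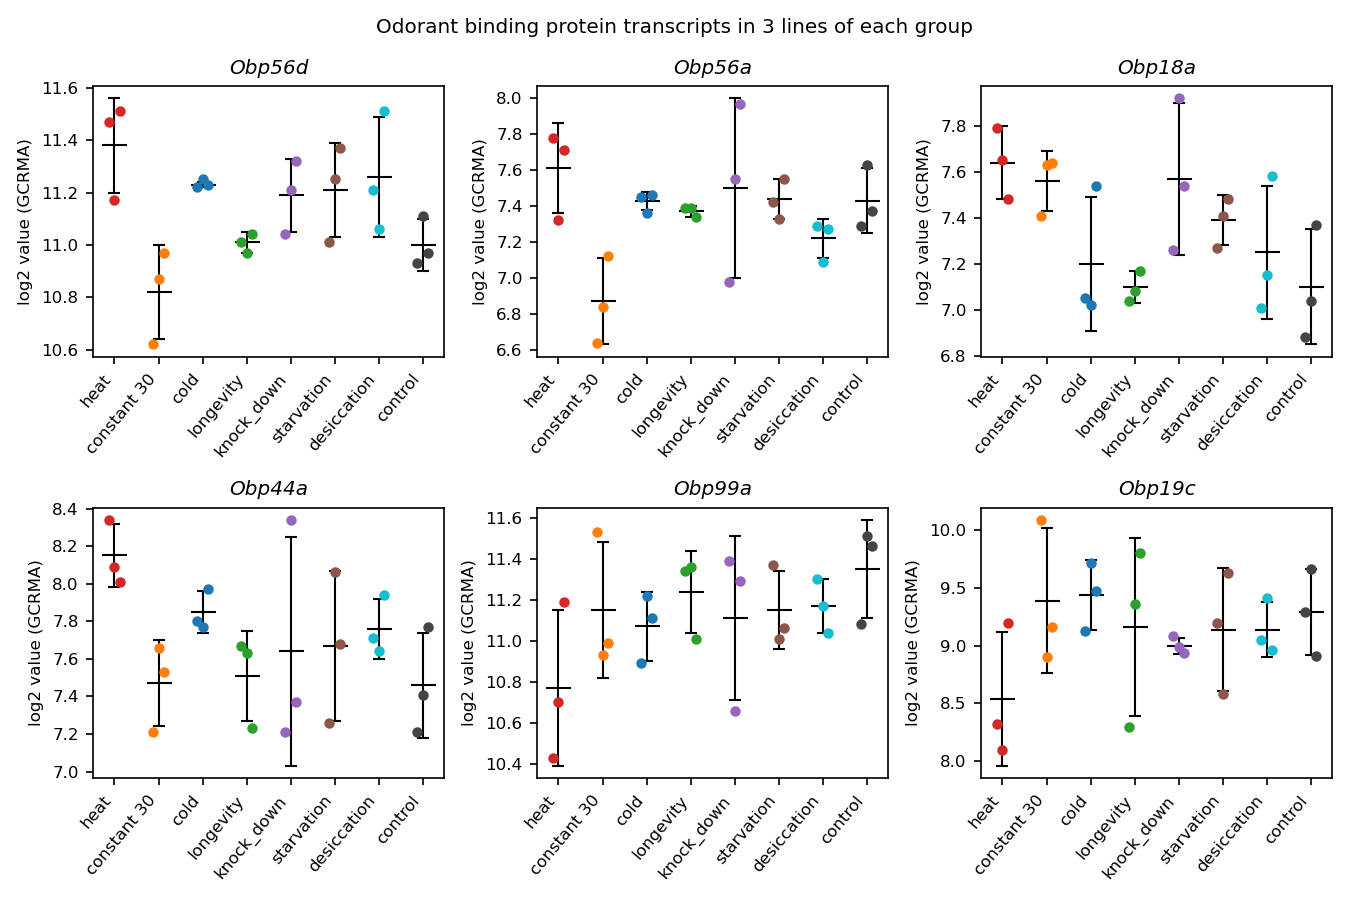
Each panel plots 1 odorant binding protein: coloured points are the log2 values of the 3 lines of a group, the horizontal mark is their mean and the bar is 1 SD either side. Heat selected lines are the highest group of Obp56d, Obp56a, Obp18a and Obp44a by mean and the lowest of Obp99a and Obp19c, and constant 30 lines are the lowest of Obp56d and Obp56a. The axes do not start at 0 and differ between panels.

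Obp56d and Obp56a separated heat selected from constant 30. Obp56d, a member of antennae and taste organs, stood at 11.47, 11.17 and 11.51 in heat selected lines, at 10.62, 10.87 and 10.97 in constant 30 lines and at 10.93, 11.11 and 10.97 in control lines. Every heat selected line was above every control line, and every constant 30 line was below every heat selected line. Against control, the log2 change was 0.38 ± 0.12 in heat selected (adjusted p = 0.0776, limma), -0.18 ± 0.12 in constant 30 (adjusted p = 0.764) and 0.26 ± 0.12 in desiccation selected (adjusted p = 0.692), whose lines stood at 11.21, 11.06 and 11.51. Cold selected lines, at 11.22, 11.25 and 11.23, were all above control, with a change of 0.23 ± 0.12 (adjusted p = 0.64). Knock_down selected lines had 11.04, 11.21 and 11.32, starvation selected lines 11.01, 11.25 and 11.37, and longevity selected lines 11.01, 10.97 and 11.04. All of these overlapped with control.

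Obp56a stood at 7.78, 7.32 and 7.71 in heat selected lines, at 6.64, 6.84 and 7.12 in constant 30 lines and at 7.29, 7.63 and 7.37 in control lines. Every constant 30 line was below every control line and every heat selected line. The log2 change against control was -0.56 ± 0.18 in constant 30 (adjusted p = 0.478, limma) and 0.18 ± 0.18 in heat selected (adjusted p = 0.6). The lines of the other regimes lay at 7.45, 7.36 and 7.46 in cold selected, 7.39, 7.39 and 7.34 in longevity selected, 6.98, 7.55 and 7.97 in knock_down selected, 7.42, 7.33 and 7.55 in starvation selected, and 7.29, 7.09 and 7.27 in desiccation selected. In knock_down selected and desiccation selected, 1 line each was below the highest constant 30 line.

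The direct comparison of heat selected with constant 30 was added after these values were seen. It called 1 of 17 members, in the direction of higher values in heat selected, where 0.366% of all tested probe sets were called. That member was Obp56d, with a log2 difference of 0.56 ± 0.12 (SE, n = 3 lines per group, adjusted p = 0.0435, limma), and Obp56a followed with 0.74 ± 0.18 (adjusted p = 0.052). At an unadjusted p under 0.05 there were 8 members (23.1% of all tested probe sets), 7 higher and 1 lower in heat selected. The values of 6 members did not overlap, all higher in heat selected. Of all tested probe sets, 27.9% did not overlap and 18.6% were higher in heat selected in this way. The members were Obp28a, Obp44a, Obp50e, Obp56a, Obp56d and Obp73a. Among them, Obp28a, Obp50e and Obp73a lay near the filter and moved with the low-signal level of the array (r = 0.77, 0.99 and 0.88). That level did not overlap either, with 3.02 to 3.14 in heat selected and 2.92 to 2.99 in constant 30 arrays. The call of Obp56d was lost in 5 of 6 fits that left out 1 of the 6 lines (all but the one without heat selected replicate 3). It was also lost without the filter, with each array centred on its median, with array weights and in the fit of the 6 arrays alone. The same held with a covariate for RNA quality or for the low-signal level of the array, both described below. The call was kept with a filter at 6 and with a trended and robust prior.

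For constant 30 against the mean of the 5 regimes other than heat selected, also added after the values were seen, 0 members were called (0% of all tested probe sets), and 2 had an unadjusted p under 0.05 (4.64%). These were Obp56d with -0.36 ± 0.09 and Obp56a with -0.52 ± 0.14, both with an adjusted p of 0.472 in limma. Across the 24 arrays the values of this pair went together (Pearson r = 0.71, two-sided permutation p = 0.00016, adjusted 0.0146 over the 91 pairs of the 14 members above 4 on all arrays; Spearman rho = 0.55, p = 0.00576, adjusted 0.128). The r was 0.70 on deviations from the group means and 0.60 without the 2 arrays farthest from the median of Obp56a, constant 30 replicate 1 and knock_down selected replicate 3. Of the 91 pairs, 11 had an adjusted p under 0.05 for r and 0 for both r and rho. Whether the probes of these related genes also bind each other's transcripts was not tested.

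Obp83b, Obp28a, Obp57c, Obp56e and Obp56g were called in none of the comparisons made. Obp83b, a protein of antennal sensilla, stood at 4.72, 4.80 and 4.84 in desiccation selected lines, at 5.76, 5.03 and 5.60 in longevity selected lines, and at 4.76, 5.34 and 5.45 in control lines. Both regimes overlapped with control, with log2 changes of -0.40 ± 0.33 and 0.28 ± 0.33 (adjusted p = 0.777 and 0.857, limma). Heat selected replicate 3, at 4.22, and starvation selected replicate 3, at 5.97, were the lowest and the highest of the 24 arrays. Obp28a, among the most abundant proteins of antennal lymph, varied least of the 14 members above 4 on all arrays, between 4.19 and 4.38. These values lie near the filter and moved with the low-signal level of the array described below (r = 0.77). The narrow range is therefore no measure of a stable transcript. Obp57c stood at 6.35, 6.56 and 6.88 in desiccation selected lines, against 6.35, 5.93 and 6.57 in control lines, and the groups overlapped, with a log2 change of 0.31 ± 0.17 (adjusted p = 0.702). Obp56e and Obp56g had changes between -0.09 and 0.27 in the 7 comparisons against control, with unadjusted p-values of 0.15 or more.

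Heat selected was also compared with the mean of the 6 other regimes, which leaves out the control lines. Of the 17 members, 1 was called, higher in heat selected, where 11.1% of all tested probe sets were called, and 10 had an unadjusted p under 0.05 (31.1%), 8 of them higher and 2 lower. The called member was Obp50e, at 3.96, 4.11 and 4.03 in heat selected lines, against 3.76 to 4.08 in the 18 lines of the other regimes, with a log2 difference of 0.17 ± 0.05 (adjusted p = 0.0487, limma). The groups overlapped, and control lines stood at 4.03, 3.93 and 3.97. Of the 4 arrays on which Obp50e was above 4, 2 were heat selected, 1 was cold selected and 1 was control, so it passed the filter partly through the group in which it is higher. In 14 of 21 fits that left out 1 line of the regimes, 0 members were called. The call of Obp50e was lost in more fits than these. Without heat selected replicate 3, the called members were Obp19c, Obp19d and Obp99a. In the fit of all lines, the members next after Obp50e were Obp19b (0.29 ± 0.10, adjusted p = 0.0606), Obp56d (0.26 ± 0.09, adjusted p = 0.0627), Obp44a (0.50 ± 0.18, adjusted p = 0.0739) and Obp69a (0.20 ± 0.07, adjusted p = 0.0795).

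The values of Obp50e moved with the low-signal level of the array, which is the median over probe sets that did not pass the filter, members left out. This level was 3.02, 3.14 and 3.05 in heat selected arrays (mean 3.07) and 3.08, 2.98 and 3.02 in control arrays. In the other regimes the level had group means from 2.93 in desiccation selected to 3.0 in cold selected. Its correlation with Obp50e over 24 arrays was r = 0.99 (two-sided permutation p = 1e-05, the smallest that 100000 permutations can give; adjusted 0.000204 over 102 relations), rho = 0.99 (p = 1e-05, adjusted 0.00034), 0.98 on deviations from the group means and 0.98 without the 2 farthest arrays, heat selected replicate 2 and cold selected replicate 3. With this level as a covariate, added after seeing the data, the log2 difference of Obp50e was 0.02 (adjusted p = 0.832, limma). The correlation was r = 0.88 for Obp73a, 0.77 for Obp28a and 0.09 for Obp56d. For Obp69a, r was 0.55 but rho was 0.43 (permutation p = 0.0389, adjusted 0.172). The r of Obp69a was 0.24 on deviations from the group means and 0.30 without the same 2 arrays.

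Obp69a, a pheromone-related member of the antenna, stood at 3.93, 4.14 and 3.95 in heat selected lines and at 3.67, 3.71 and 3.67 in desiccation selected lines, against 3.86, 3.82 and 3.96 in control lines. All desiccation selected lines were below all control lines, with a log2 change of -0.20 ± 0.10 (adjusted p = 0.698, limma). Obp73a stood at 3.94, 4.02 and 3.98 in heat selected lines and at 3.82, 3.88 and 3.87 in constant 30 lines, against 3.94, 3.89 and 4.03 in control lines. All constant 30 lines were below all control lines, with a log2 change of -0.10 ± 0.06 (adjusted p = 0.726).

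**Figure D4:**
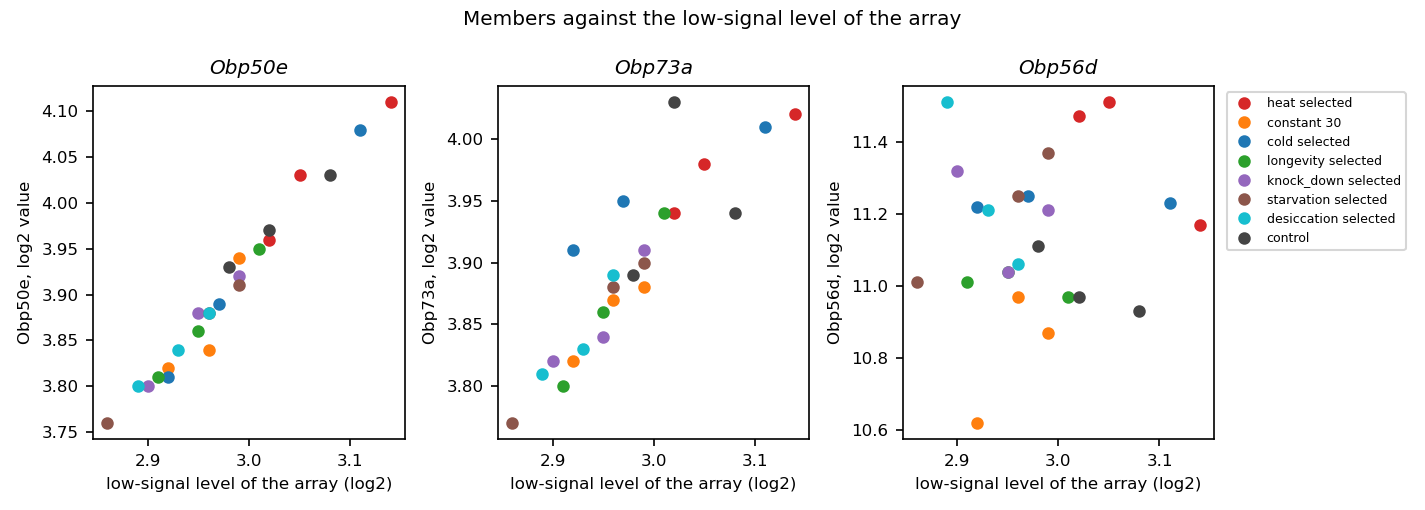
Log2 values of Obp50e, Obp73a and Obp56d (vertical axes) are plotted against the low-signal level of each array (horizontal axis, log2), 1 point per array and 1 colour per group. Obp50e follows the level closely (r = 0.99), Obp73a less so (r = 0.88), and Obp56d shows no such relation (r = 0.09).

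Most of the 18 members below the filter followed the same level. Their correlation with it had a lowest value of -0.04 and a median of 0.91, and 14 of 18 were over 0.8, while the 14 members above 4 on all arrays had a median of 0.08 and a highest value of 0.77. Heat selected replicate 2 was the highest array for 11 of the 18, and starvation selected replicate 1 the lowest for 11. Their values spanned between 0.23 and 0.85 over the 24 arrays. The widest span was that of Obp99b, a gene of the male fat body, which was singled out after its values were seen. It stood at 3.47, 3.12 and 2.86 in starvation selected lines, against 2.87, 2.72 and 2.81 in control lines, and between 2.62 and 2.87 in the other regimes. Starvation selected replicates 1 and 2 were the highest of the 24 arrays, and replicate 3 overlapped with control. In a fit of all 13966 probe sets without the filter, its log2 change in starvation selected against control was 0.35 ± 0.10 (adjusted p = 0.341, limma).

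Heat selected females differed from control in markers of several tissues, and some odorant binding proteins moved with these from array to array. The mean of 22 muscle probe sets was 8.26 to 8.81 in heat selected and 7.67 to 8.15 in control arrays, and the mean of 11 eggshell probe sets was 10.81 to 11.98 in heat selected and 11.98 to 12.34 in control arrays. In heat selected against control, 9 of 22 tested muscle probe sets were called higher and 3 of 11 eggshell probe sets lower. Of the eye markers, 4 of 14 tested probe sets were called higher, and of the fat body markers 2 of 12 lower. Of all tested probe sets, 2.84% were called in this comparison in either direction. The lowest value on any array was 3.87 for a muscle probe set and 6.69 for an eggshell probe set. The part of these tissues in the values of the odorant binding proteins was not tested.

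Obp19c followed the eggshell mean over the 24 arrays (r = 0.82, two-sided permutation p = 1e-05, adjusted 0.000204 over 102 relations; rho = 0.81, p = 2e-05, adjusted 0.000408). The r was 0.75 on deviations from the group means and 0.75 without the 2 farthest arrays, heat selected replicates 1 and 2. Obp44a followed the muscle mean (r = 0.80, permutation p = 1e-05, adjusted 0.000204; rho = 0.80, p = 1e-05, adjusted 0.00034), with 0.68 on deviations from the group means and 0.74 without heat selected replicates 1 and 2. So did Obp18a (r = 0.73, permutation p = 9e-05, adjusted 0.000918; rho = 0.75, p = 0.0001, adjusted 0.00146), with 0.86 and 0.66 in the same order. Obp99a ran the other way (r = -0.81, permutation p = 1e-05, adjusted 0.000204; rho = -0.75, p = 9e-05, adjusted 0.00146), with -0.72 and -0.69. For Obp56d, r with the muscle mean was 0.61 (permutation p = 0.00165, adjusted 0.00886; rho = 0.65, p = 0.00083, adjusted 0.00941) and 0.35 on deviations from the group means. The relations of Obp19c, Obp44a, Obp18a and Obp99a were not particular to 1 tissue. With the fat body mean, r was 0.67 for Obp19c, -0.69 for Obp44a, -0.60 for Obp18a and 0.75 for Obp99a. With the eye mean, r was 0.71 for Obp18a. The adjusted permutation p of each of these r values was 0.00886 or less. For Obp56d, r with the fat body mean was -0.50 (adjusted permutation p = 0.046, and 0.12 for rho) and 0.02 on deviations from the group means. Of the 17 tested members, 6 had an adjusted p under 0.05 for r with the muscle mean, 5 with the eggshell mean, 5 with the eye mean, 6 with the fat body mean and 0 with the 3′ minus 5′ difference of the control transcripts, a measure of RNA quality.

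**Figure D5:**
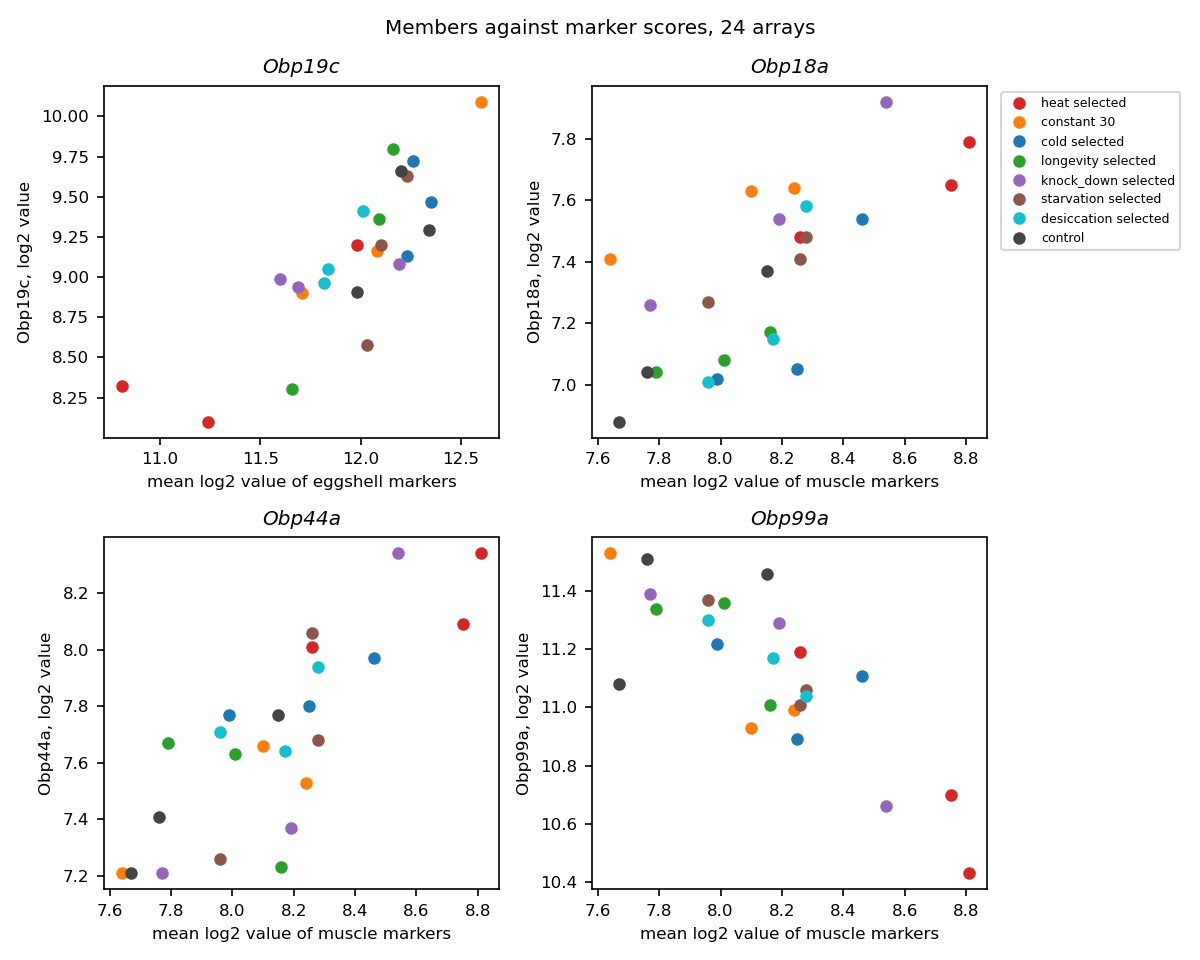
Each panel plots the log2 value of 1 odorant binding protein against the mean log2 value of a marker list on the same array, 1 point per array and 1 colour per group. Obp19c rises with the eggshell mean (r = 0.82), Obp18a and Obp44a rise with the muscle mean (r = 0.73 and 0.80), Obp99a falls with it (r = -0.81), and heat selected replicates 1 and 2 are at the end of each horizontal axis with the most muscle or least eggshell signal.

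The partners of odorant binding proteins in chemosensation were mostly below the filter. Of 28 gustatory receptor probe sets 27, and of 47 ionotropic receptor probe sets 40, were above 4 on no array. Among other carriers of chemosensory organs, 6 of 12 probe sets were tested, and EbpIII, a secreted protein first found in the ejaculatory bulb, lay between 11.44 and 12.03. In the comparisons of the 7 regimes with control, 0 probe sets were called of the 1 tested odorant receptor (Or2a), the 1 tested gustatory receptor (Gr8a), the 3 tested ionotropic receptors, the 6 other carriers, the 4 olfactory membrane proteins and enzymes and the 2 tested genes of the takeout family. Gr8a, which ranged from 3.78 to 4.06, was called in heat selected against the mean of the 6 other regimes, with a log2 difference of 0.14 ± 0.04 (adjusted p = 0.0493, limma), where 11.1% of all tested probe sets were called. It was above 4 on 3 arrays, the fewest that pass the filter, and its relation to the low-signal level of the array was not tested. Both tested male probe sets, Acp26Aa (0.23 ± 0.06, adjusted p = 0.0324, limma) and Acp32CD (0.32 ± 0.10, adjusted p = 0.04), were called higher in the same comparison. They too lay near the filter, with medians of 4.07 and 4.16, and their relation to the low-signal level of the array was not tested. The smallest p-values of these lists in the F test over 8 groups were those of Ugt35B1, an enzyme of olfactory organs (adjusted p = 0.325, limma), and Snmp2, a membrane protein of the CD36 family (adjusted p = 0.343).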

How the data were processed

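Transcripts of adult whole females were measured with Affymetrix arrays, 24 arrays of 8 groups with 3 lines each. Per the labels' protocols, RNA came from 10 females of a vial, and 5 micrograms of it went into oligo-dT primed cDNA and biotin-labelled cRNA. The deposited values are log2 expression values made by the authors with GCRMA, per the submitters' processing notes, with settings that the sources used here do not state. The lowest value was -0.18 and the highest 14.95, array medians lay between 5.46 and 5.57, and the values were used without further normalization. The number of arrays limits the precision.

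Lines are biological replicates per the labels, and the tests rest on the spread among lines of a group. Scan dates are not stated there. Genes were named from the platform annotation, with symbols updated in a RefSeq gene table (Release 6) for all 35 members, and probe sets with 1 named gene were used. The same table gave the neighbours of each gene.

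After 44 control probe sets of the maker were left out of 14010, probe sets above 4 (log2) on at least 3 of 24 arrays were tested. A model with 1 mean per group was fitted over all of them with lmFit and eBayes of limma 3.58.1 (R 4.3.3), which gave 16 residual degrees of freedom and 3.6 from the prior. Two-sided p-values had a Benjamini-Hochberg adjustment inside each comparison, and a call means an adjusted p under 0.05. Errors are standard errors of the fit. The script was tested on simulated data. Permutation tests drew 100000 permutations of all 24 arrays without regard to group, so their p-values also take in differences between groups. Correlations on deviations from the group means were given no p-value.

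The members, the gene lists and the comparisons were chosen with earlier results of these data known. Members with values of single lines are those called, the 6 with the largest F statistic, the 6 with the highest mean, and those with the highest and lowest change in each regime. The lines of every group are given for Obp18a, Obp56a and Obp56d, and those of some groups for the rest of these. The other members are given by ranges and counts, except Obp19b and Obp99b, which are outside this rule and were picked with their values in view. From the other chemosensory lists, genes called and the 2 with the smallest p in the F test are named. The line numbers were checked as pairs: 34 of 84 correlations of same-numbered arrays were over 0.1. Their median was 0.069, against -0.024 for differently numbered arrays. This check does not settle whether lines of the same number share an effect. In the main fit the lines were not treated as paired. The alternatives were other filters, normalizations, weights, variance priors and covariates, a block for the line number, and leaving out each line.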

Additional observations from a re-analysis of the deposited data

Results flagged for a closer look

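Obp56d was called in heat selected against constant 30 lines, with a log2 difference of 0.56 (0.561; adjusted p = 0.0435, limma). The lines stood at 11.47, 11.17 and 11.51 in heat selected and at 10.62, 10.87 and 10.97 in constant 30, and against control the changes had opposite signs, 0.38 in heat selected and -0.18 in constant 30. The comparison was added after the values were seen. The call was lost in 5 of 6 fits that left out 1 line, and also without the filter, with arrays centred on their medians, with array weights, with either covariate and in the fit of the 6 arrays alone.

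Obp50e was called in heat selected lines against the mean of the 6 other regimes, with a log2 difference of 0.17 (0.166; adjusted p = 0.0487, limma), which was 0.02 (adjusted p = 0.832) with the low-signal level of the array as a covariate. All of its values lay between 3.76 and 4.11, next to the filter, which it passed on 4 arrays, 2 of them heat selected. Its correlation with the low-signal level of the array was 0.99.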

How the results depend on the processing

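The count of called members stayed at 0 in constant 30, cold, longevity, knock_down, starvation and desiccation selected against control, in the mean of 7 regimes, in constant 30 against 5 regimes and in both F tests, under every alternative run, leave-outs included. Heat selected against control had 1 call with array weights (Obp56d), and 0 to 1 when a line was left out (Obp18a without control replicate 3, Obp99a without heat selected replicate 3). Heat selected against the 6 other regimes had 8 calls without the filter (Obp19b, Obp46a, Obp47a, Obp50e, Obp56d, Obp58b, Obp85a and Obp99d, where 2793 of 13966 probe sets were called), 1 of another gene with array weights (Obp56d), and 0 with a filter at 6, which Obp50e does not pass, with quantile normalization, with arrays centred on their medians, and with a covariate for RNA quality or for the low-signal level. Leaving out a line gave 0 to 3, with 3 without heat selected replicate 3 (Obp19c, Obp19d and Obp99a), 2 without knock_down selected replicate 2 (Obp44a and Obp50e), and 0 without heat selected replicates 1 or 2, constant 30 replicates 1 or 3, cold selected replicate 2, longevity selected replicates 1 or 3, knock_down selected replicates 1 or 3, any starvation selected replicate, or desiccation selected replicates 1 or 2. Heat selected against constant 30 had 2 calls (Obp56a and Obp56d) with a filter at 6 and with a trended and robust prior. It had 0 without the filter, with centring on the median, with array weights, with the covariate for RNA quality or for the low-signal level, and in the fit of its 6 arrays alone. Leaving out a line gave 0 to 1, with 0 without heat selected replicates 1 or 2 and without any of constant 30 replicates 1, 2 and 3. The causes were not tested.

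The line number as a block gave 2 calls in heat selected against control (Obp18a and Obp56d), 2 against the 6 other regimes (Obp50e and Obp56d) and 2 against constant 30. Same-numbered arrays had a median correlation of 0.069, against -0.024 for differently numbered arrays, and 9 of 24 arrays correlated best with their own number. Whether same-numbered lines share an effect is not settled by these values, and the block rests on shared numbers only. The block changed no other count of calls.

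The log2 changes of named members were counted once per setting. Direction and side of the threshold were kept in 364 of 386 cases under settings other than leave-outs, and in 377 of 408 under leave-outs. Only the changes of Obp56d and Obp50e flagged above were called in the main fit. For the others, keeping the side meant staying uncalled, so these counts do not show that the calls are stable. A call was lost in 11 and 22 cases, and gained in 10 and 7, in the same order. The change of Obp73a in heat selected against the 6 other regimes reversed under quantile normalization (-0.013). That of Obp19c in longevity selected against control ran from -0.454 to 0.297 over leave-outs. It was above 0 without control replicate 2 (0.056) or without longevity selected replicate 1 (0.297). No other change reversed. Members within the low-signal range of the array cannot be measured as changed or unchanged here.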
